A study of Homo sapiens with 10 samples.

Results

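Genes of the pericellular matrix and of plasminogen activation were followed in A253, a human cell line derived from a salivary gland squamous cell carcinoma. They are the 9 genes FN1, TNC, SPARC, THBS1, TGFBI, SERPINE2, PLAU, PLAUR and PLAT, chosen by name from the 58735 genes of a count table, and all 9 passed the filter on low counts in every comparison. The study asked how loss of DUSP1, a phosphatase that switches off MAP kinases, changes these tumour cells. RNA was sequenced from control cells with a guide RNA against dTomato and from Cl1 and Cl10, clones that carry a heterozygous CRISPR/Cas9 deletion of DUSP1 exon 2, with 2 libraries in each of the 3 groups. The paper reports that DUSP1 protein was absent from both clones although the deletion was heterozygous. All groups received a guide vector and a lentiviral Cas9. Each DUSP1 genotype is a single clone, so an effect of the deletion and a trait of the clone cannot be told apart, and nothing in the labels says that the libraries of a group came from separate cultures, so p-values measure only the spread between these libraries.

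Fibronectin, the product of FN1, is a large adhesive glycoprotein that cells assemble into fibrils and grip through integrins. Matricellular proteins such as tenascin C, SPARC, thrombospondin 1 and TGFBI are secreted into the matrix but mainly tune adhesion and growth factor activity rather than build structure. Urokinase, bound to its receptor on the cell surface, and tissue-type plasminogen activator turn plasminogen into plasmin, which degrades fibronectin and other matrix proteins, and serpins such as SERPINE2 hold them in check.

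Library totals lay between 47016495 and 70986593 counts. Counts below are TMM-normalized and scaled to the mean library total, and every adjusted p comes from edgeR's quasi-likelihood test with Benjamini-Hochberg adjustment over all tested genes. Both clones were set against the same control libraries, so a deviation of a control library moves both comparisons. DUSP1 itself had 744.8 and 635.7 normalized counts in the control libraries, 304 and 354 in Cl1 and 495 and 415 in Cl10. DUSP1 fell in Cl1 (log2 fold change -1.07, standard error 0.149, adjusted p = 0.000291) and in Cl10 (-0.59, standard error 0.134, adjusted p = 0.0113), with Cl10 above Cl1 by 0.48 (adjusted p = 0.00817), and the counts do not show whether exon 2 was present. Summed squamous epithelial markers (KRT5, KRT14, KRT6A, TP63, CDH1, EPCAM and SFN) lay between 725000 and 841200 normalized counts in the 6 libraries, and all 7 were expressed. Of the fibroblast, endothelial and leukocyte markers, COL1A1, COL3A1, VWF and CD14 held most counts, while the defining genes DCN, LUM, THY1, PECAM1, KDR, PTPRC and CD3E were at or near 0. The summed 8 fibroblast markers were between 2579 and 2916 normalized counts in the control, between 2655 and 2831 in Cl1 and between 1751 and 1847 in Cl10, with 2 of the 3 tested lower in Cl10. The 5 leukocyte markers, of which CD14 was tested, summed to 356 to 402 in the control, 597 to 799 in Cl1 and 504 to 570.1 in Cl10, and the 4 endothelial markers to 157 to 254 in the control, 327 to 446.5 in Cl1 and 184 to 239 in Cl10. VWF was higher in Cl1 (0.93, adjusted p = 0.0102), and CDH5, with at most 41 raw counts in a library, in Cl10 (2.28, adjusted p = 0.0229). The part of these markers in the results below was not tested. In RNA from a culture as a whole, fewer cells that express a gene and less RNA per cell cannot be told apart.

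Stretches of the FN1 and THBS1 promoters are shown because, of the members with an AP-1, cyclic AMP response element or TEAD motif in the window searched, theirs are the stretches that do not overlap an annotated exon. Those of SPARC and PLAUR do and are not printed. The sequences are from RefSeq on GRCh38.p14, read 5′ to 3′ on the strand of the gene, upstream of its start, with the motif in capitals.
FN1, chr2:215436198-215436297, minus strand, cyclic AMP response element: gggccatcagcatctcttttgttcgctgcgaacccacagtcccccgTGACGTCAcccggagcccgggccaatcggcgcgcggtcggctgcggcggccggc
THBS1, chr15:39580979-39581078, plus strand, TEAD motif: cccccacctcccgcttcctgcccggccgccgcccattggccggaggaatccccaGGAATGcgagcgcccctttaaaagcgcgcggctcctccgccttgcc

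The 250 bases before the start were searched on both strands in the 10 RefSeq promoter entries of the members (SERPINE2 and PLAU have more than 1, and PLAT, which has none, was not searched) and in all 35116 entries. The cyclic AMP response element TGACGTCA stood in FN1, 183 bases before the start, and in 1.65% of all promoters. The AP-1 motif TGANTCA stood in PLAUR, 186 bases before the start, and in 6.57% of all, and the TEAD motif GGAATG in SPARC and THBS1, 17 and 46 bases before the start, and in 11.9% of all. A TATAAA box was in none of the 10 and in 10.7% of all promoters, and the GC box GGGCGG in 7 of 10 and in 42.6% of all. These matches are letters in a window and were not tested for a part in the values below.

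In Cl1 the inhibitor SERPINE2 and fibronectin fell, and SPARC and TGFBI rose. In Cl10 all 9 genes passed the test, with the matricellular genes TNC, SPARC, THBS1 and TGFBI higher and FN1, SERPINE2, PLAU, PLAUR and PLAT lower. By count, 2 of 9 genes were higher and 2 lower in Cl1 at an adjusted p under 0.05, where 12.4% of the 20153 tested genes were higher and 12.8% lower. In Cl10, 4 of 9 were higher and 5 lower, where 20.6% of 19875 tested genes were higher and 21.8% lower. With an absolute log2 fold change above 1 also required, FN1 and SERPINE2 in Cl1 and FN1 and TGFBI in Cl10 remained, and 7.54% and 13.4% of all tested genes met that limit. The median log2 fold change over the 9 genes was -0.10 in Cl1 and -0.42 in Cl10, beside -0.01 over all tested genes in either comparison. Of the calls in Cl10, those of SPARC (higher) and of SERPINE2 and PLAT (lower) were lost in fits without a Cl10 library, as given below.

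**Figure D1:**
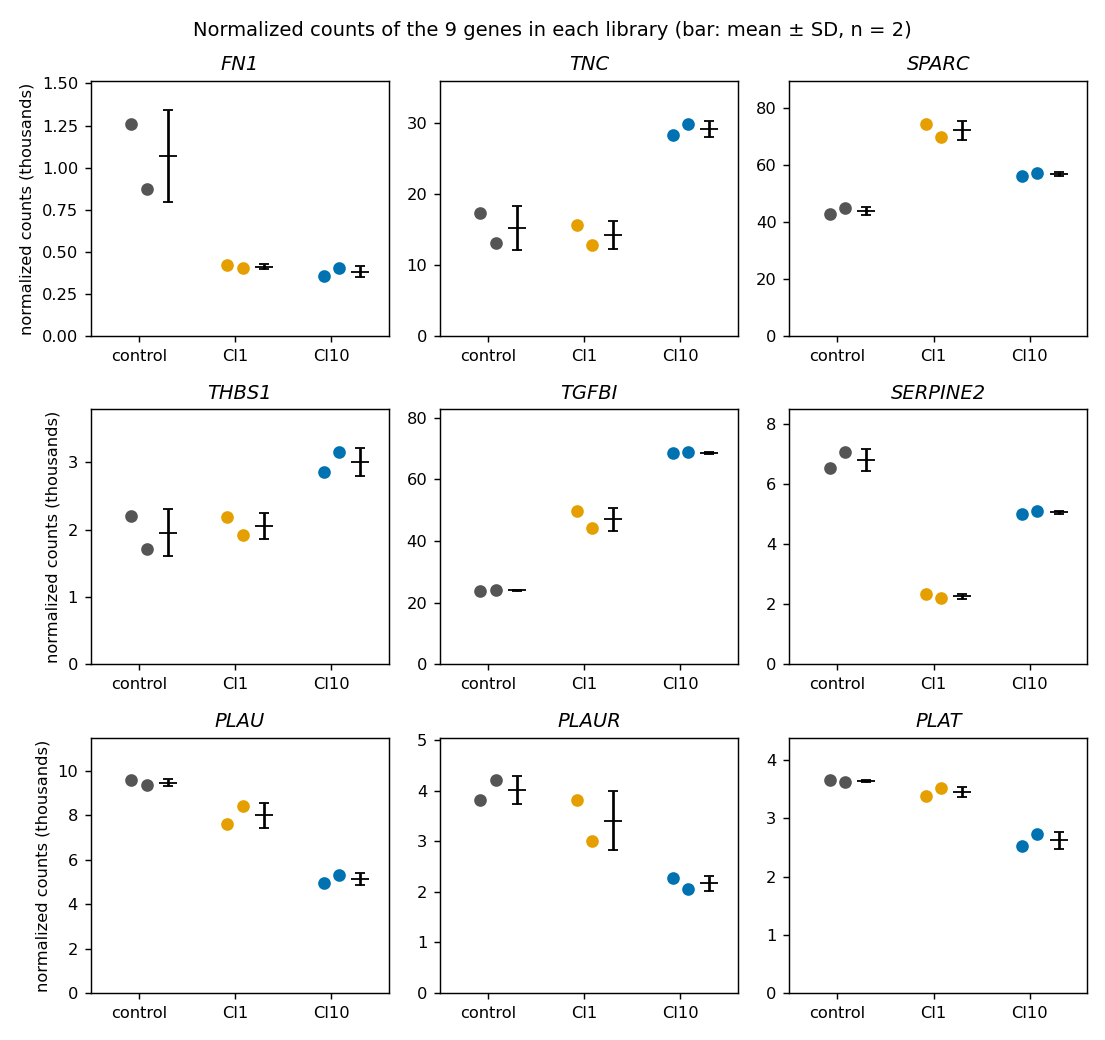
Normalized counts (axes in units of 1000) of the 9 genes in each of the 6 libraries, with the mean ± SD (n = 2) drawn as a bar beside the points of each group. FN1 was lowest in the 4 clone libraries, TGFBI rose from a mean of 23999 in the control to 68628 in Cl10, and SERPINE2 was lowest in Cl1.

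FN1 (ENSG00000115414), on the minus strand of chromosome 2 of hg38 from 215360440 to 215436073, had 1262 and 873 normalized counts in the control libraries, 421 and 403 in Cl1 and 358 and 403 in Cl10. All 4 clone libraries lay below both control libraries, and the clones overlapped each other. The control mean was 1068 ± 275, against 412 ± 12.7 for Cl1 and 381 ± 32.3 for Cl10 (all SD, n = 2). This is 2.59-fold lower in Cl1 (log2 fold change -1.37, standard error 0.168, adjusted p = 0.000115) and 2.81-fold lower in Cl10 (-1.49, standard error 0.183, adjusted p = 0.000985). Leaving out 1 library at a time gave log2 fold changes from -1.61 to -1.08 in Cl1 and from -1.74 to -1.21 in Cl10. Cl10 set directly against Cl1 gave -0.12 (standard error 0.117, adjusted p = 0.442). The 50 nearest expressed genes on the chromosome had median log2 fold changes of 0.17 (Cl1) and 0.13 (Cl10), opposite in sign to FN1.

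TGFBI, a secreted protein that binds collagens and integrins, rose most. TGFBI (ENSG00000120708), on the plus strand of chromosome 5 from 136028988 to 136063818, had 23830.0 and 24168 normalized counts in the control libraries, 49725 and 44375 in Cl1 and 68413 and 68843 in Cl10. The 3 groups did not overlap, and replicates lay close together compared with the steps between groups. Means rose from 23999 ± 239 in the control to 47050.0 ± 3783 in Cl1 and 68628 ± 304 in Cl10 (all SD, n = 2). It was 1.96-fold higher in Cl1 (log2 fold change 0.97, standard error 0.132, adjusted p = 0.000244) and 2.87-fold higher in Cl10 (1.52, standard error 0.0847, adjusted p = 6.61e-05), and Cl10 exceeded Cl1 by 0.55 (standard error 0.0699, adjusted p = 3.61e-05). The median over its 50 nearest genes was 0.36 in Cl1, 0.12 in Cl10 and -0.17 between the clones. With that median subtracted TGFBI was at 0.61, 1.40 and 0.72, and the part of the neighbourhood in the result was not tested.

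SPARC, a calcium-binding glycoprotein that binds collagen and loosens cell adhesion, had the highest level of the 9 genes per kilobase of exon and went highest in Cl1. SPARC (ENSG00000113140), also on chromosome 5, minus strand, from 151661096 to 151686975, had 42773 and 44976 normalized counts in the control libraries, 74598 and 69897 in Cl1 and 56254 and 57294 in Cl10. Groups did not overlap, with Cl10 between the control and Cl1. The rise was 1.65-fold in Cl1 (log2 fold change 0.72, standard error 0.135, adjusted p = 0.00219) and 1.30-fold in Cl10 (0.38, standard error 0.0856, adjusted p = 0.0118). The difference of Cl10 from Cl1 was -0.34 on the log2 scale (standard error 0.0649, adjusted p = 0.000781). The call in Cl10 was lost without either Cl10 library, at 0.40 (adjusted p = 0.206) without replicate 1 and 0.36 (adjusted p = 0.261) without replicate 2, and the difference between the clones was -0.33 (adjusted p = 0.0531) without Cl10 replicate 1. The median over neighbouring genes was 0.27 in Cl1 and 0.33 in Cl10, and with it subtracted SPARC was at 0.45 and 0.05. The part of the neighbourhood was not tested.

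TNC, which encodes tenascin C, a hexameric glycoprotein that opposes cell spreading on fibronectin, rose in Cl10. TNC (ENSG00000041982), on the minus strand of chromosome 9 from 115019575 to 115118207, had 17319 and 13031 normalized counts in the control libraries, 15554 and 12819 in Cl1 and 28314 and 29868 in Cl10. Control and Cl1 libraries overlapped, and both Cl10 libraries lay above all the others. The log2 fold change was 0.94 in Cl10 (standard error 0.139, adjusted p = 0.00199), a ratio of 1.92, and -0.10 in Cl1 (standard error 0.154, adjusted p = 0.697). Tested directly, Cl10 exceeded Cl1 2.06-fold (log2 fold change 1.04, standard error 0.0833, adjusted p = 7.58e-07). The 50 genes nearest to TNC had a median of 0.18 between the clones, which subtracted left 0.86, and their part was not tested.

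THBS1, the gene of thrombospondin 1, which activates latent TGF-beta and inhibits angiogenesis, also rose in Cl10, from a lower level. THBS1 (ENSG00000137801), on the plus strand of chromosome 15 from 39581079 to 39599466, had 2203 and 1716 normalized counts in the control libraries, 2193 and 1925 in Cl1 and 2865 and 3155 in Cl10. As for TNC, control and Cl1 overlapped and Cl10 lay above both. It rose 1.54-fold in Cl10 (log2 fold change 0.62, standard error 0.128, adjusted p = 0.00797) and was at 0.07 in Cl1 (standard error 0.133, adjusted p = 0.731). Cl10 exceeded Cl1 by 0.55 (standard error 0.0757, adjusted p = 6.89e-05). With 1 library left out at a time the value in Cl10 ranged from 0.45 to 0.81.

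SERPINE2, also called protease nexin 1, inhibits thrombin, urokinase and plasmin, and its fall in Cl1 was the largest change among the 9 genes there. SERPINE2 (ENSG00000135919), on the minus strand of chromosome 2 from 223975045 to 224039318, had 6532 and 7054 normalized counts in the control libraries, 2325 and 2204 in Cl1 and 5009 and 5092 in Cl10. Cl1 was far below both other groups, and Cl10 lay between. The level was 2.99-fold lower in Cl1 (log2 fold change -1.58, standard error 0.113, adjusted p = 1.6e-06) and 1.34-fold lower in Cl10 (-0.42, standard error 0.0821, adjusted p = 0.00633). Between the clones the difference was 1.16 (standard error 0.0592, adjusted p = 2.36e-08), with Cl10 2.23-fold above Cl1. The fall in Cl10 lost its call without Cl10 replicate 1 (-0.41, adjusted p = 0.139) and without Cl10 replicate 2 (-0.44, adjusted p = 0.113). The 50 genes nearest to SERPINE2 had medians of 0.02 (Cl1) and -0.02 (Cl10).

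The plasminogen activators and the urokinase receptor went down together in Cl10. PLAU (ENSG00000122861), the gene of urokinase, on the plus strand of chromosome 10 from 73909177 to 73917496, had 9572 and 9362 normalized counts in the control libraries, 7606 and 8407 in Cl1 and 4957 and 5309.9 in Cl10. Each Cl10 library was below each Cl1 library, and each of those below the controls. The fall was 1.84-fold in Cl10 (log2 fold change -0.88, standard error 0.0827, adjusted p = 0.000346), and in Cl1 the value was -0.24 (standard error 0.116, adjusted p = 0.152). The clones differed by -0.64 (standard error 0.067, adjusted p = 7.31e-06). The 50 genes nearest to PLAU had a median of -0.07 between the clones, which subtracted left -0.56, and their part was not tested.

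PLAUR (ENSG00000011422), the gene of the lipid-anchored receptor that holds urokinase at the cell surface, lies on the minus strand of chromosome 19 from 43646095 to 43670547. It had 3826 and 4207 normalized counts in the control libraries, 3819 and 2999 in Cl1 and 2279 and 2065 in Cl10. The Cl10 libraries were the lowest, while the higher Cl1 library nearly reached the lower control. The log2 fold change was -0.88 in Cl10 (standard error 0.0916, adjusted p = 0.000497), a 1.84-fold fall, and -0.23 in Cl1 (standard error 0.13, adjusted p = 0.213), which passed the threshold without control replicate 1 (-0.30, adjusted p = 0.0151). Cl10 was below Cl1 by -0.65 (standard error 0.0957, adjusted p = 0.00012). In Cl1 the 50 nearest genes had a median of -0.23, close to PLAUR itself, and in Cl10 of 0.07. Between the clones their median was 0.41, opposite in sign to PLAUR, and with it subtracted PLAUR was at -1.06. The part of the neighbourhood was not tested.

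PLAT (ENSG00000104368), the gene of tissue-type plasminogen activator, lies on the minus strand of chromosome 8 from 42174718 to 42207709. It had 3654 and 3631 normalized counts in the control libraries, 3391 and 3517 in Cl1 and 2520.2 and 2730.4 in Cl10, so that Cl10 was again below every other library. The value was -0.47 in Cl10 (standard error 0.0822, adjusted p = 0.00418), a 1.38-fold fall, and -0.07 in Cl1 (standard error 0.106, adjusted p = 0.652). Without Cl10 replicate 1 the call was lost (-0.41, adjusted p = 0.116). Cl10 was below Cl1 by -0.39 (standard error 0.0633, adjusted p = 0.00024).

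**Figure D2:**
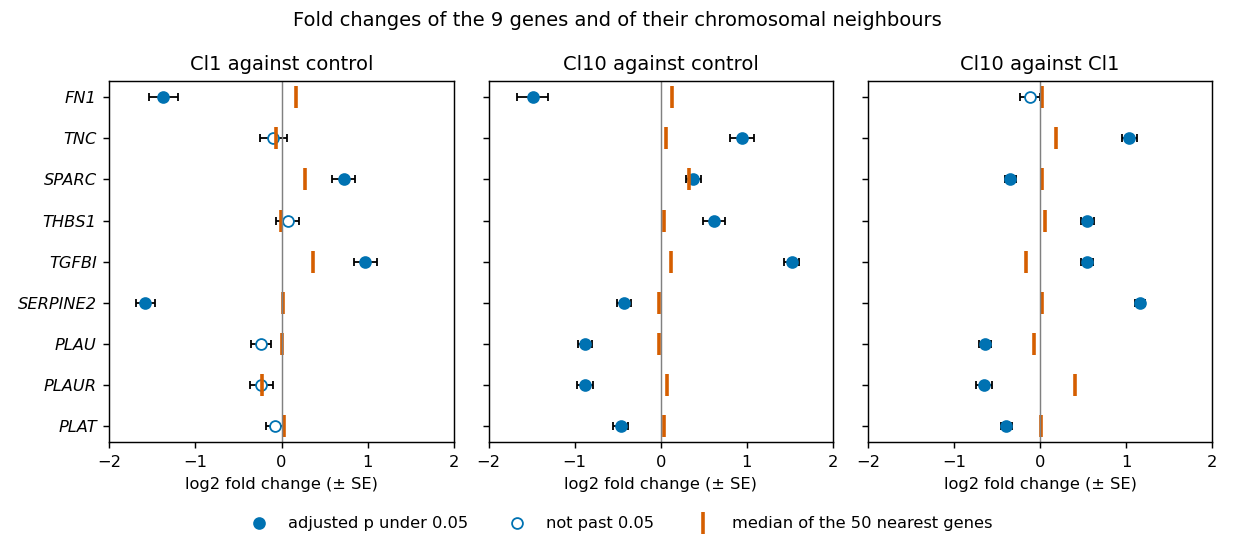
Log2 fold changes (± standard error) of the 9 genes in Cl1 against control, Cl10 against control and Cl10 against Cl1, filled where the adjusted p was under 0.05, with a vertical bar at the median of the 50 nearest genes. FN1 stands near -1.4 to -1.5 in both clones with neighbours above 0, while SPARC in Cl10 (0.38) lies close to its neighbours (0.33).

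Set directly against each other, the clones differed in 8 of the 9 genes. Cl10 was higher in 4 (TNC, THBS1, TGFBI and SERPINE2) and lower in 4 (SPARC, PLAU, PLAUR and PLAT), where 24.9% of 19818 tested genes were higher and 24.1% lower. Above an absolute log2 fold change of 1 there were TNC and SERPINE2, beside 10.8% of all tested genes. FN1 alone of the 9 had clone libraries that overlapped, but with 2 libraries a group a lack of overlap is a weak criterion.

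Levels were compared between genes per kilobase of exon, as CPM (counts scaled to the TMM-adjusted library total) per kilobase. The length was the annotated exon length of each gene, for example 7717 bases for TGFBI and 2949 for PLAU. Which transcripts the cells expressed was not determined, so the order between genes depends on these lengths. In the control SPARC was highest at 164 ± 5.84 (SD, n = 2), followed by PLAU at 55.8 ± 0.874 and TGFBI at 54.0 ± 0.537, TNC at 27.5 ± 5.5, PLAUR at 15.7 ± 1.05, SERPINE2 at 13.2 ± 0.716, PLAT at 8.15 ± 0.0352, THBS1 at 3.72 ± 0.654 and FN1 at 1.08 ± 0.277. FN1 was thus the lowest of the 9 on this scale before any change. On this scale TGFBI, at 155 ± 0.684, stood second in Cl10, and TNC, at 52.7 ± 1.99, above PLAU at 30.2 ± 1.47. PLAT and THBS1 overlapped there at 5.87 ± 0.332 and 5.71 ± 0.389. Undivided by length, TGFBI (mean 23999 normalized counts) and TNC (15175) already exceeded PLAU (9467) in the control. In Cl10 TGFBI then also exceeded SPARC (68628 against 56774). In the control SPARC was highest and FN1 lowest either way. In Cl1 SERPINE2, at 4.39 ± 0.166, had dropped below PLAT at 7.72 ± 0.199 to near THBS1 at 3.91 ± 0.359.

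**Figure D3:**
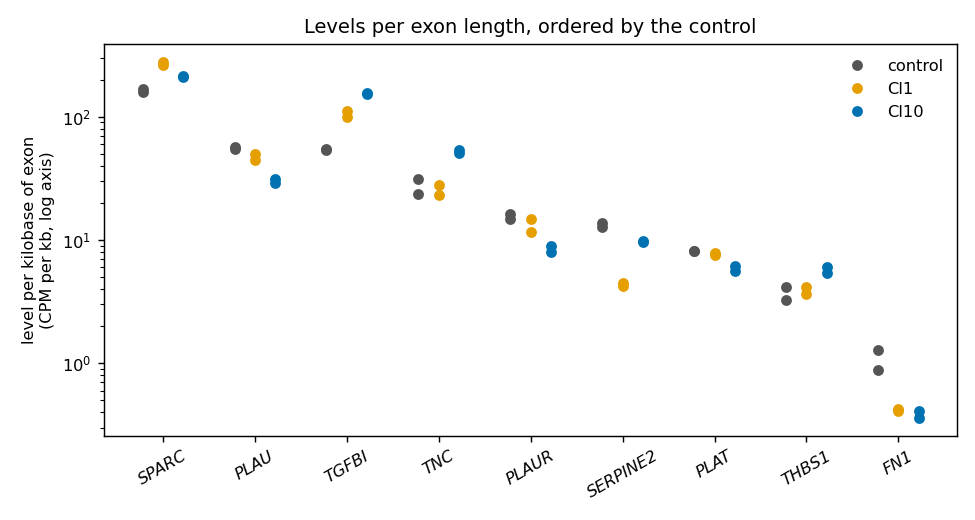
Level of each gene per kilobase of exon (CPM per kilobase, log axis) in every library, ordered by the control. The order between genes depends on the annotated exon lengths. On this scale SPARC was highest in all groups, and FN1 lowest, at 1.08 in the control and 0.416 and 0.384 in Cl1 and Cl10.

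The other genes of these systems were taken as lists. Over all tested genes, 12.4% were higher and 12.8% lower in Cl1, and 20.6% were higher and 21.8% lower in Cl10. The counts of each list below stand beside these shares, and no list was tested as a set. Of 24 other matricellular genes, 18 were tested in Cl1, with 5 higher, 6 lower and a median log2 fold change of 0.09, and 17 in Cl10, with 4 higher, 7 lower and a median of -0.16. Without Cl1 replicate 1 the counts in Cl1 were 3 higher and 3 lower, and without Cl1 replicate 2 they were 1 and 3. THBS4, another thrombospondin, fell in both clones (-1.61, adjusted p = 0.000184, and -1.36, adjusted p = 0.000847), from 260 and 232 normalized counts in the control to values of 68.3 to 98.2 in the 4 clone libraries. FBLN5, a fibulin of elastic fibres, was lower as well (-0.73, adjusted p = 0.0248, and -0.84, adjusted p = 0.0095), and so was SPOCK2, a testican related to SPARC (-0.93, adjusted p = 0.0479, and -1.55, adjusted p = 0.00953). In Cl1 the call of FBLN5 was lost with the DESeq2 test (adjusted p = 0.0779) and without Cl1 replicate 1 or 2 (adjusted p = 0.0545 and 0.147). The call of SPOCK2 in Cl1 was lost with DESeq2 size factors (adjusted p = 0.0503), with the DESeq2 test (adjusted p = 0.157), without control replicate 1 (-0.57, adjusted p = 0.299) and without Cl1 replicate 1 or 2 (adjusted p = 0.108 and 0.159). SPOCK3, another testican, had 134 and 87 raw counts in the control libraries, 3 and 2 in Cl1 and 0 in both Cl10 libraries. Beyond these, THBS2 was lower in both clones (-0.64, adjusted p = 0.0231, and -1.34, adjusted p = 0.00262). EFEMP1 was higher in both (0.36, adjusted p = 0.029, and 0.46, adjusted p = 0.00352).

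Among 13 other genes of the plasminogen system, 10 were tested, with 1 higher and 3 lower in Cl1 and 1 higher and 5 lower in Cl10, at medians of -0.03 and -0.42. SERPINI1, the inhibitor neuroserpin (-1.46, adjusted p = 0.000391, and -1.94, adjusted p = 0.00162), and PLGRKT, a plasminogen receptor (-0.67, adjusted p = 0.00167, and -0.85, adjusted p = 0.00227), fell in both clones. The 50 nearest genes had medians in Cl1 and Cl10 of -0.18 and -0.62 for SERPINI1 and of -0.22 and -0.03 for PLGRKT. With the median subtracted, SERPINI1 was at -1.32 in Cl10 and PLGRKT at -0.45 in Cl1, and the part of the neighbourhood was not tested. The gene that rose in both was S100A10, whose product binds plasminogen with annexin A2 (0.90, adjusted p = 0.000986, and 0.34, adjusted p = 0.0448). The median over its 50 nearest genes was 0.39 in Cl1 and 0.16 in Cl10, and with it subtracted S100A10 was at 0.52 and 0.18. The part of the neighbourhood was not tested. Its call in Cl10 was the single higher one of the list there and was lost without Cl10 replicate 1 or 2 (adjusted p = 0.350 and 0.222) and with a replicate block (adjusted p = 0.0560), which left 0 higher genes in these fits. Its value in Cl10 was 0.20 without control replicate 1. In Cl1 the higher genes of the list were 2 without either control library.

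Of 16 receptors of fibronectin and matricellular proteins, 14 were tested, with 6 higher and 3 lower in Cl1 and 4 higher and 4 lower in Cl10, at medians of 0.14 and 0.05. ITGA5, whose product pairs with integrin beta 1 as the main fibronectin receptor, had 5895 and 5124 normalized counts in the control libraries, 4075 and 3683 in Cl1 and 1812.5 and 1936 in Cl10, with log2 fold changes of -0.50 (adjusted p = 0.0084) and -1.55 (adjusted p = 0.0001). Its call in Cl1 was lost without Cl1 replicate 1 or 2 (adjusted p = 0.0504 and 0.160), and less the median over its 50 nearest genes (-0.54 in Cl10) the value in Cl10 was -1.02. ITGB6, whose product pairs with integrin alpha v in a receptor of fibronectin and of latent TGF-beta, went up from 527 and 554 to 1531 and 1863 in Cl1 and 1678 and 1694 in Cl10 (1.65, adjusted p = 4e-06, and 1.65, adjusted p = 5.8e-05). ITGB1 itself stood at -0.01 in both. CD47, a thrombospondin 1 receptor (0.69, adjusted p = 0.00109, and 0.32, adjusted p = 0.0151), and SDC1, the heparan sulfate proteoglycan syndecan 1 (0.51, adjusted p = 0.0104, and 0.31, adjusted p = 0.0214), were higher in both clones. The calls in Cl10 were lost without Cl10 replicate 1 or 2 for CD47 (adjusted p = 0.224 and 0.233) and for SDC1 (adjusted p = 0.320 and 0.319), and that of SDC1 in Cl1 without Cl1 replicate 1 or 2 (adjusted p = 0.169 and 0.0719). With a replicate block SDC1 in Cl10 was also not past the threshold (adjusted p = 0.0829). With the median of the nearest genes subtracted (0.12 for CD47 and 0.26 for SDC1 in Cl10), CD47 was at 0.20 and SDC1 at 0.05 in Cl10. The part of the neighbourhood in ITGA5, CD47 and SDC1 was not tested. Without Cl1 replicate 1 the receptors in Cl1 were 3 higher and 0 lower, without Cl1 replicate 2 there was 1 lower, and without either Cl10 library those in Cl10 were 2 higher and 2 lower.

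For the members that passed in both clones, the genes with the most similar profile were sought among 11655 genes by Pearson correlation of log2 CPM over the 6 libraries, which fall into 3 groups and so give high values easily. SH2B3 (0.997) and CLTCL1 (0.996) were closest to FN1, and C16orf70 (0.996) and ZNF703 (0.996) to SPARC. LTO1 (0.999) and CDC23 (0.999) were closest to TGFBI, and HIST3H2BB (0.998) and LCK (0.997) to SERPINE2. Such a correlation does not measure the size of a change. C16orf70 passed the test in neither clone (adjusted p = 0.0628 in Cl1 and 0.113 in Cl10). LTO1 and CDC23 passed in Cl10 but not in Cl1 (adjusted p = 0.118 and 0.056), and the other genes named passed in both clones. CDC23 lies on chromosome 5, as TGFBI does.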

How the data were processed

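RNA of A253 cells was sequenced from 3 groups of 2 libraries (control, Cl1, Cl10). Libraries from cells with a SOX2 guide and their own controls were not analysed here. Per the paper's methods the authors used HISAT2 to align reads to hg38 and HTSeq to count them, while the submitters' processing notes name HISAT2, StringTie and DESeq. The deposited values are raw counts per gene, without normalization. Annotation and strand setting are not given in the sources used here, so reads of overlapping antisense genes cannot be told apart. Genes that overlap a member held at most 1.11% of its counts. Columns were matched to samples by name. Coordinates are from GENCODE v44, which held 58207 of 58735 identifiers.

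Each comparison was fitted on its own 4 libraries with edgeR 4.0.16 in R 4.3.3 (filterByExpr, TMM, glmQLFit, glmQLFTest), with Benjamini-Hochberg adjustment over all tested genes and a threshold of 0.05. Standard errors are the log2 fold change over the square root of F. The code was tested on simulated data. Between libraries of a group, 58.5% (control), 47.3% (Cl1) and 23.6% (Cl10) of genes with enough counts differed beyond counting noise (chi-square test). No library was thus a mere copy of the other. The test cannot tell separate cultures from separate preparations of the same RNA. Alternatives were size factors from DESeq2 1.42.0 and library size in place of TMM, other filters, the DESeq2 test, one fit over 6 libraries, a replicate block, each library left out, fold changes less the median over the 50 nearest genes, and a log2 fold change above 1. The members, the lists and the tests were chosen with earlier results of these data known. Named from each list were up to 4 genes that passed the same way in both clones with the largest smaller absolute log2 fold change. A further gene of the plasminogen list is not reported here and was left out of its counts. ITGB1, THBS2 and EFEMP1 were named after their values were seen.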

Additional observations from a re-analysis of the deposited data

Results flagged for a closer look

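Set directly against each other with edgeR's quasi-likelihood test, the clones differed in 8 of the 9 genes, with n = 2 libraries each. Over all 19818 tested genes, 24.9% were higher in Cl10 and 24.1% lower. The log2 fold change of Cl10 against Cl1 was 1.04 for TNC, 0.55 for THBS1, 0.55 for TGFBI and 1.16 for SERPINE2, and -0.34 for SPARC, -0.64 for PLAU, -0.65 for PLAUR and -0.39 for PLAT. For each of them the libraries of the clones did not overlap, which with 2 libraries a group is a weak criterion. How many of all genes show no overlap is not given here. With 2 libraries a group, single libraries could not be examined as outliers.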

How the results depend on the processing

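No member changed direction past the threshold under any alternative. Of 99 member values in each comparison (settings other than the fold limit and the subtraction of neighbours), 98 kept their side of the threshold in Cl1, 94 in Cl10 and 98 between the clones. Member counts were the same under DESeq2 size factors, library size, other filters, the DESeq2 test and one fit over 6 libraries. Requiring a log2 fold change above 1 left 0 members higher in Cl1, 1 higher and 1 lower in Cl10, and 2 higher and 0 lower in Cl10 against Cl1. That limit left, in Cl1, 1 higher and 2 lower other matricellular genes, 0 and 2 other plasminogen genes and 2 and 1 receptors, and in Cl10 0 and 1 plasminogen genes and 1 and 1 receptors. Leaving out 1 library at a time, the member calls lost in Cl10 were those of SPARC (higher) and of SERPINE2 and PLAT (lower). Over these fits the matricellular genes in Cl1 numbered 1 to 6 higher and 3 to 7 lower, plasminogen genes higher 1 to 2 in Cl1 and 0 to 1 in Cl10, receptors 3 to 7 higher and 0 to 2 lower in Cl1 and 2 to 6 higher and 2 to 5 lower in Cl10. Library size alone gave 3 higher matricellular genes in Cl1, and the DESeq2 test 3 lower.

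With a replicate block, member counts were unchanged, while the matricellular genes higher in Cl1 went to 3 and the plasminogen genes higher in Cl10 to 0. The deviations of same-numbered libraries from their group means correlated at -0.07, -0.02 and 0.01. Replicate 1 had the larger total in each group, and the labels do not say whether same-numbered libraries share a batch. A fit without 1 library rests on 3 and assumes that the lone library varies like the other group. Depth was not limiting for the 9 genes, which had at least 337 raw counts in every library, and the 2 libraries a group limit all p-values.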

Other observations

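These genes of the same lists were chosen after their values were seen. CCN1, a matricellular protein that binds integrins, had 3150.1 and 3824 normalized counts in the control libraries, 3257 and 2974 in Cl1 and 8036 and 8257 in Cl10. It rose in Cl10 (log2 fold change 1.23, adjusted p = 0.000265) and stood at -0.16 in Cl1 (adjusted p = 0.374), where it was -0.29 without control replicate 1 (adjusted p = 0.0184), and Cl10 set directly against Cl1 gave 1.39 (adjusted p = 1.05e-08). CCN2, a related gene at a lower level, had 63.5 and 50.6 normalized counts in the control libraries, 65.8 and 77.3 in Cl1 and 175 and 146 in Cl10. Its values were 1.49 in Cl10 (adjusted p = 0.00179), 0.32 in Cl1 (adjusted p = 0.422) and 1.18 between the clones (adjusted p = 0.000447). As for TNC and THBS1, both Cl10 libraries lay above all the others.

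MRC2, a collagen uptake receptor that associates with the urokinase receptor, had 9315 and 9083 normalized counts in the control libraries, 8739 and 9050.5 in Cl1 and 4875 and 4977 in Cl10. It fell in Cl10 (-0.90, adjusted p = 0.00026), where its 50 nearest genes had a median of -0.52, which subtracted left -0.37, and the part of the neighbourhood was not tested. SERPINB2, another inhibitor of urokinase, differed between the clones the other way. It had 55.01 and 50.6 normalized counts in the control libraries, 6.83 and 3.52 in Cl1 and 51.1 and 35.9 in Cl10. The values were -3.26 in Cl1 (adjusted p = 0.000233) and -0.26 in Cl10 (adjusted p = 0.469), and 2.996 between the clones (adjusted p = 0.000193).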
